A study of Mus musculus with 35 samples.

Results

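DMT-Cre and WT-Cre were compared to ask how the transcriptome of mouse embryonic fibroblasts (MEFs) differs when, after Cre, they carry a construct of NELFB altered at 2 binding surfaces instead of the wild-type construct. These groups hold 4 of the 35 RNA-seq libraries of the series, 2 for each group, and were chosen by construct and virus as the sample labels give them. All cells were immortalized Nelfb flox/- MEFs, in which 1 Nelfb allele is already deleted and the other is floxed, so every group, controls included, carried the deletion. The cells were transduced with a lentiviral vector carrying wild-type Nelfb (WT) or Nelfb with the changes of MT194 and MT486 together (DMT, whose make-up is taken from the sample label alone), and RNA was taken 7 days after adenovirus carrying Cre and GFP (Ad-Cre-GFP) or GFP alone. The same constructs without Cre (DMT-GFP and WT-GFP), the single mutants (MT194-Cre and MT486-Cre) and an empty vector (EV-Cre), each with 2 libraries, are used below only where they show how DMT-Cre differs. The 2 replicates of a group come from independent experiments on cell populations, and DMT-Cre replicate 1 is paired with WT-Cre replicate 1, and likewise for replicate 2. Reads assigned to genes numbered 23942142 and 27726070 in DMT-Cre and 22704317 and 21151468 in WT-Cre. The share of reads outside annotated genes was 15.8% and 15.6% in DMT-Cre and 11.7% and 15.2% in WT-Cre, so WT-Cre replicate 1 stood lower than the other libraries, and the part of this in the results was not tested.

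NELF (negative elongation factor) is a complex of NELFA, NELFB, NELFC or its variant NELFD, and NELFE that holds RNA polymerase II at a pause shortly after it starts transcribing. NELFB sits between the NELFA-NELFC lobe and NELFE, and release of the pause by the kinase CDK9 lets the polymerase move into the gene body. MT194 is an alanine substitution that removes binding to NELFA and NELFC, and MT486 removes binding to NELFE.

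The changed codons are shown first because they define the comparison. Nelfb lies on the minus strand of chromosome 2 at chr2:25199712-25211489 (GRCm38), and its 13-exon transcript holds both sites in coding sequence. The MT194 codons, V-K-R in the name of the construct, lie in exon 4 at chr2:25210010-25210018, and the MT486 codons, N-K-N, lie in exon 10 at chr2:25203169-25203177. Counted from the first in-frame ATG of the transcript these are codons 145 to 147 and 437 to 439, so the numbers in the construct names are 49 higher. In the mutagenesis oligos the MT194 change alters 5 bases and the MT486 change alters 6 bases. The 4 sequences below are written 5′ to 3′ along the coding strand with the 3 substituted codons in capitals, the reference taken from the transcript and the mutant from the designed oligo.
MT194 site, reference: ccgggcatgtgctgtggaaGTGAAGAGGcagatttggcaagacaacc
MT194 site, mutant: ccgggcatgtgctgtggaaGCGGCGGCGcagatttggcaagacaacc
MT486 site, reference: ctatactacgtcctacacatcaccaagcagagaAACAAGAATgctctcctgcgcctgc
MT486 site, mutant: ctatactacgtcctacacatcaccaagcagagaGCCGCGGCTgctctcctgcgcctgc
The counts per gene do not separate reads of the constructs from reads of the chromosomal gene, and reads over these codons were not examined.

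Nelfb RNA was more abundant in DMT-Cre than in WT-Cre. Levels are given throughout in CPM, the reads of a gene relative to all gene reads of its library, scaled between libraries by TMM. Nelfb stood at 169 and 208 CPM in DMT-Cre replicates 1 and 2 and at 75.9 and 60.5 CPM in WT-Cre. Both DMT-Cre libraries were above both WT-Cre libraries, with a log2 fold change of 1.47 ± 0.20 (SE, n = 2 a group, edgeR's quasi-likelihood test, Benjamini-Hochberg adjusted p = 0.0024). Without WT-Cre replicate 2 the same difference had an adjusted p of 0.0504. EV-Cre, which has no rescue construct, stood at 7.97 and 5.46 CPM against 46.1 and 39.5 CPM in EV-GFP, so Nelfb RNA was lower after Cre but not gone. With the floxed allele still in place the order was the other way, with 73.5 and 61.6 CPM in DMT-GFP and 97.5 and 82.8 CPM in WT-GFP, and that difference did not pass the test. The single mutants lay between, at 104 and 119 CPM in MT194-Cre and 116 and 128 CPM in MT486-Cre. The amount of construct RNA therefore differed between the groups together with the sequence of the construct, and their parts in the differences below cannot be told apart.

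The genes of the partner subunits did not pass the test without a replicate block. Nelfa, which encodes the subunit that contacts the polymerase, stood at 38.6 and 30.9 CPM in DMT-Cre and 43.9 and 39.9 CPM in WT-Cre (log2 difference -0.27, 95% interval -0.71 to 0.17). Nelfcd, which encodes NELFC and NELFD, stood at 37.8 and 35.8 against 34.9 and 35.7 CPM (0.06, -0.25 to 0.37). Nelfe, the RNA-binding subunit, stood at 33.6 and 25.3 against 37.0 and 33.5 CPM (-0.26, -0.77 to 0.25). The intervals leave room for a moderate difference in each of the 3 genes. Nelfe levels overlapped between the groups, Nelfcd levels nearly touched and Nelfa levels did not overlap. With the replicate number as a block Nelfa had an edgeR adjusted p of 0.0284 at a log2 difference of -0.28. That difference was below the fold threshold of 0.5 used here, and Nelfcd and Nelfe did not pass with the block. These RNA values say nothing of the proteins, whose binding the substitutions were designed to change.

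**Figure D1:**
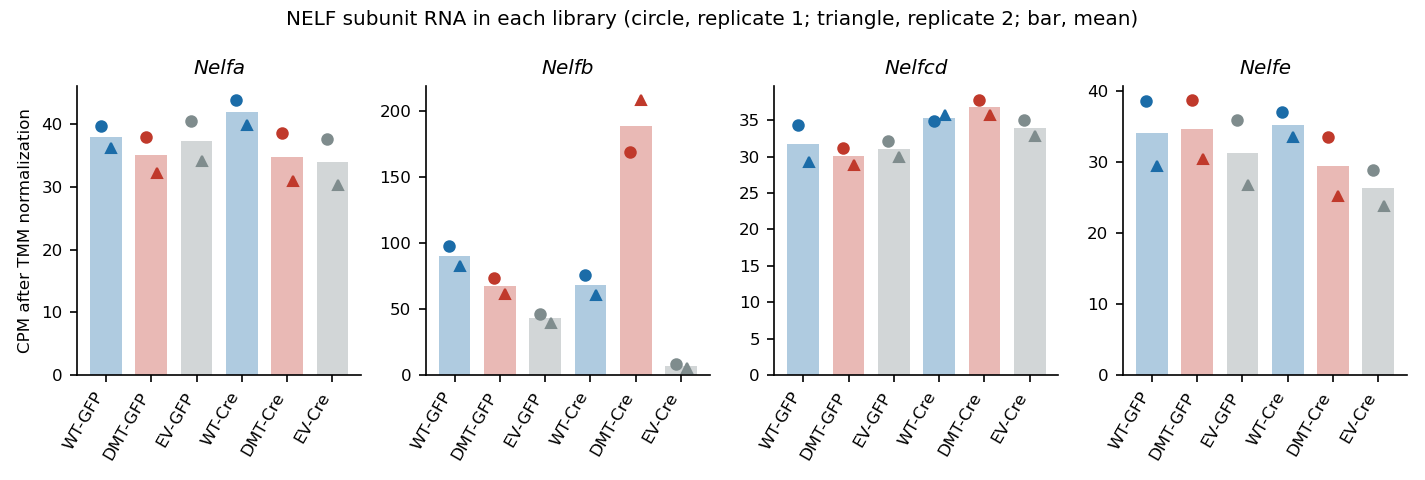
Level of each NELF subunit gene in CPM (vertical axes, linear from 0) in WT, DMT and EV populations with GFP or Cre virus; bars are group means and points are the 2 libraries. Nelfb stands highest in the DMT-Cre libraries, at 169 and 208 CPM, and lowest in EV-Cre, at 7.97 and 5.46 CPM, while Nelfa, Nelfcd and Nelfe stay within a narrow range.

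Across the 13805 genes tested, 406 differed between DMT-Cre and WT-Cre, 2.94% of the genes tested. A gene is called here at an adjusted p under 0.05 (edgeR's quasi-likelihood test) and an absolute log2 fold change over 0.5. Unless another setting is named, calls and genes said not to pass refer to the fit without a replicate block. In DMT-Cre 210 genes were higher (1.52%) and 196 were lower (1.42%), with median log2 fold changes of 1.21 and -1.05. Each of the 406 genes moved the same way in both replicate pairs and had groups that did not overlap in CPM, where 47.6% of all tested genes also had groups that did not overlap. The called differences had medians of 1.07 in replicate 1 and 1.18 in replicate 2 for the higher genes, and -0.98 and -1.08 for the lower genes. Replicate 1 had the larger change in 62 of the 210 higher genes and 81 of the 196 lower genes, so replicate 2 had it more often. The median over all tested genes was 0.0065. The replicate numbers pair the samples. Counts of list members below stand beside 1.52% of all genes higher and 1.42% lower, or 14.2% called with the replicate as a block. With that block the count was 1965 (1045 higher, 920 lower, 14.2% of the genes tested), which held all 406. Removing a library reduced the count, to 137 without DMT-Cre replicate 1, 73 without DMT-Cre replicate 2, 76 without WT-Cre replicate 1 and 62 without WT-Cre replicate 2. The balance of directions moved as well, to 33 higher and 43 lower without WT-Cre replicate 1 and 20 higher and 42 lower without WT-Cre replicate 2. In those fits a group has 1 library, which is assumed to vary like the other groups. They have no replicate block, so a group from 1 experiment is set against a group from 2. A difference between the experiments then enters the comparison of the constructs. Of the 87 called genes singled out by the naming rule, 17 were called in all 4 fits, 37 in 1 to 3 of them and 33 in none. The 17 were Nsdhl, Hsd17b7, Msmo1, Mvk, Lss, Insig1, Scd1, Lipg, Fmo1, Kank4, Stk32b, Dpp4, Plk2, Smad7, Acta2, Ier5 and Hspa1b. Genes described below that were called in 1 fit were Sqle, Scd2, Ctgf, Thbs1, Thbd, Ier3, Spry4, Hbegf, Il6, Hmox1, Slc7a11, Hk2, Hsph1, Hist1h2be and Ndn, and in 2 fits Fdps, Maff, Dusp4, Gclc, Hist1h1e and Gpr35. Those called in none were Srebf2, Lpin1, Fasn, Elovl6, Acss2, Oxct1, Cpt1a, Inmt, Batf, Cnn1, Synpo2, Actn1, Palld, Ajuba, Gadd45b, Skil, Pmepa1, Smoc1, Dusp1, Fosl1, Ereg, Cdkn2a, Cdkn2b, Perp, Bbc3, Egln3, Hist1h3b, Hist2h2be, Ndufb11, Uqcrc1 and Idh3g.

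**Figure D2:**
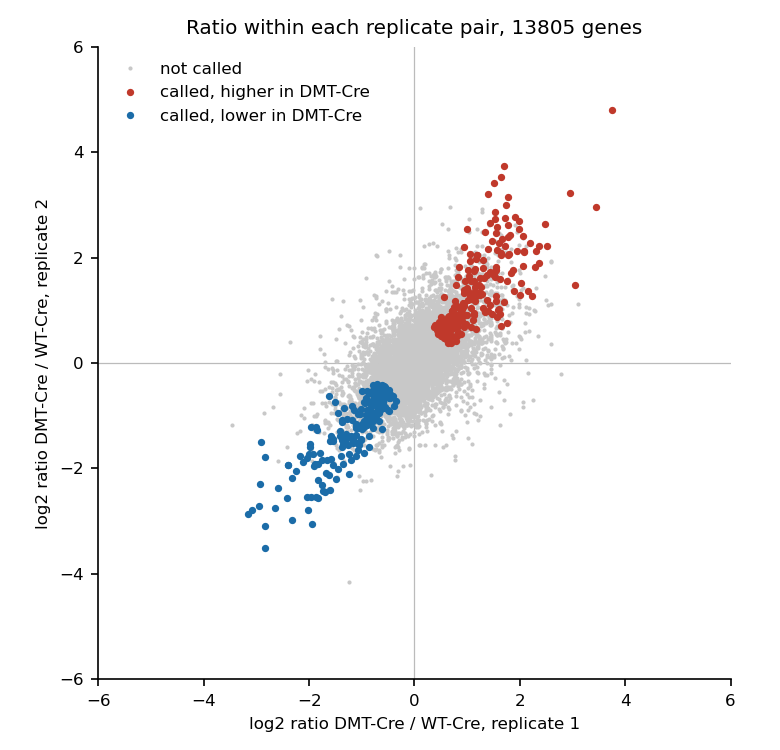
Log2 ratio of DMT-Cre to WT-Cre within replicate 1 (horizontal) and within replicate 2 (vertical) for the 13805 genes tested; called genes are coloured by direction. All 406 called genes lie in the quadrants where both pairs have the same sign, as do 71.9% of all genes tested.

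Few differences were called while the floxed allele was in place. Between DMT-GFP and WT-GFP edgeR's quasi-likelihood test called 0 genes (0% of those tested), 166 genes had an unadjusted p under 0.05 and DESeq2 called 2. With the replicate block 19 genes were called there. The 210 genes higher in DMT-Cre had a median log2 difference of 0.01 between DMT-GFP and WT-GFP, and the 196 lower genes one of -0.07. The test of the change itself, the difference between the constructs with Cre minus that without Cre, called 19 genes (0.138%), of which 8 were positive and 11 negative. Under the replicate block it called 992, including all 19. Leaving out any single library of DMT-Cre, WT-Cre, DMT-GFP or WT-GFP lost some or all of the 19 calls. Among the 19 were the sterol genes Nsdhl, Hsd17b7 and Insig1 and the desaturase gene Scd1 on the negative side and Plk2, Smad7, Ier5 and Hspa1b on the positive side. Ad-Cre itself was present in both groups of the Cre comparison.

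Most genes of cholesterol synthesis were lower in DMT-Cre. Cells make cholesterol from acetyl-CoA through mevalonate, and the transcription factor SREBP-2 (Srebf2) raises nearly every enzyme of the pathway when sterols in the endoplasmic reticulum run low, with INSIG proteins holding it back. Of 21 pathway genes tested, 17 fell, 0 rose and 4 did not pass the test. The list had a median log2 fold change of -1.72 against 0.0065 over all genes, and its median was -1.54 in replicate 1 and -1.92 in replicate 2. The replicate block called 20 of the 21, and removing a library left 6 to 12 called in the list, with the list median between -2.02 and -1.47.

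The start of the pathway showed the size of the shift. Hmgcs1, which makes HMG-CoA, stood at 108 and 53.8 CPM in DMT-Cre and 352 and 295 CPM in WT-Cre. The DMT-Cre libraries were well below the WT-Cre libraries, with a log2 fold change of -2.00 ± 0.40 (SE, edgeR adjusted p = 0.0194). Mvk, mevalonate kinase, stood at 17.5 and 14.5 against 62.7 and 54.8 CPM (-1.88 ± 0.24). Mvd, which decarboxylates the pyrophosphate, showed 12.6 and 9.05 against 68.0 and 54.2 CPM, the lowest fold change of the list (-2.50 ± 0.36). Fdps, which builds farnesyl pyrophosphate, stood at 19.4 and 8.33 against 75.5 and 69.9 CPM (-2.39 ± 0.40). In Hmgcs1 and Fdps DMT-Cre replicate 2 was the lower of the pair by a wide margin. The groups did not overlap in these 4 genes, as was so for every called gene.

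Most genes of the sterol-forming steps fell, though not all passed the test. Sqle, the epoxidase that adds oxygen to squalene, stood at 162 and 145 CPM in DMT-Cre and 381 and 479 CPM in WT-Cre (-1.49 ± 0.27). Lss, which closes the ring to lanosterol, stood at 43.1 and 29.5 against 126 and 113 CPM (-1.72 ± 0.24). Cyp51, the lanosterol demethylase, stood at 62.7 and 46.6 against 221.9 and 276 CPM (-2.19 ± 0.31). All 3 were called and, like every called gene, had groups that did not overlap. Msmo1, Nsdhl and Hsd17b7 together remove the methyl groups at carbon 4 of the sterol. Msmo1 stood at 90.5 and 70.9 against 301 and 381 CPM (-2.08 ± 0.28, adjusted p = 0.0021). Nsdhl (chrX:72918557-72958514) stood at 21.1 and 17.5 against 75.4 and 81.7 CPM (-2.02 ± 0.18, adjusted p = 0.000205), and Hsd17b7 at 26.3 and 23.5 against 68.0 and 71.3 CPM (-1.48 ± 0.16, adjusted p = 0.000857). All 3 demethylation genes remained called without any 1 of the 4 libraries, as did Mvk and Lss.

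The other 4 genes did not pass the test without the replicate block, under which 20 of the 21 were called lower. Sc5d, a desaturase, had a log2 difference of -1.01 (adjusted p = 0.109) and Ebp, an isomerase, one of -0.68 (adjusted p = 0.3003). Ggps1, which leads from farnesyl pyrophosphate to geranylgeranyl pyrophosphate and not to sterols, had 25.4 and 19.1 CPM in DMT-Cre against 22.2 and 18.8 CPM in WT-Cre and was the only member above 0 (0.12, 95% interval -0.47 to 0.71). Idi1 was counted at few reads, 2.10 and 0.199 CPM against 5.09 and 5.10 CPM (-2.13, adjusted p = 0.161). Reads with several matches in the genome were removed before counting, so genes with close copies can be undercounted.

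SREBP regulators and genes of sterol uptake fell in part. Of 15 tested, 5 fell and 0 rose, with a median of -0.44, which became -0.21 without DMT-Cre replicate 1 and -0.29 without WT-Cre replicate 2. Insig1 (chr5:28071363-28078662), itself an SREBP target that retains the factor in the endoplasmic reticulum, stood at 31.3 and 21.3 CPM in DMT-Cre and 122 and 124 CPM in WT-Cre (-2.23 ± 0.25, adjusted p = 0.00121). Its libraries did not overlap between the groups, as was so for every called gene. Srebf2 itself stood at 213 and 213 against 425 and 507 CPM (-1.13 ± 0.26), and Lpin1, a phosphatidate phosphatase, at 13.1 and 12.4 against 18.4 and 19.7 CPM (-0.58 ± 0.11). Stard4, a sterol carrier, did not pass (-1.74, adjusted p = 0.0593). Between 1 and 3 genes of the list were called when a library was removed.

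Promoters are shown because these genes moved together. RefSeq (GRCm38.p6) gave a promoter for 12 of the 17 cholesterol synthesis genes that fell, and the 250 bases before each start were searched on both strands for CCAAT, the box bound by NF-Y, and for TCACNCCAC, a form of the sterol regulatory element. CCAAT was present in 10 of the 12 (83.3%) against 34.5% of 27025 promoters, and at least 2 copies in 6 (50%) against 10.5%. TCACNCCAC was present in 1 of the 12, Hmgcs1, against 1.04% of all promoters. The promoters of Hmgcs1 and Mvk are printed on the plus strand with the CCAAT box, written ATTGG where it lies on the other strand, and the sterol element in capitals.
Hmgcs1 promoter, chr13:119690101-119690350: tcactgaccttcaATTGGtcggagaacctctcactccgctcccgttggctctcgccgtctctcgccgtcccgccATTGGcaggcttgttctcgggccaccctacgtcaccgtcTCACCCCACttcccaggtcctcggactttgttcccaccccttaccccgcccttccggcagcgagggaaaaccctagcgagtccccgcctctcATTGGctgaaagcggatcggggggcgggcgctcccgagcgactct
Mvk promoter, chr5:114444019-114444268: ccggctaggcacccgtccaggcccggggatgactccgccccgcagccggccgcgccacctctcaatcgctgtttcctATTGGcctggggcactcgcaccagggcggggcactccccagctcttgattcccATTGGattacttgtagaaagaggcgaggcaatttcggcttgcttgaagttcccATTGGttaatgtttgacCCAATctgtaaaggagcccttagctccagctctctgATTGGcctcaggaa
Hmgcs1 holds 3 CCAAT boxes and Mvk holds 5. A match describes the sequence and is no evidence of binding, and binding was not measured in these libraries.

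Fatty acid synthesis genes were lower in a smaller number. Of 19 tested, 5 fell and 0 rose, with a median of -0.49, and the block called 9. The median was -0.28 without DMT-Cre replicate 1 and -0.75 without DMT-Cre replicate 2. Scd2, the most abundant desaturase gene here, stood at 568 and 715 CPM in DMT-Cre and 2095 and 2702 CPM in WT-Cre (-1.90 ± 0.34). Scd1 (chr19:44394455-44407879), which likewise makes oleate from stearate, stood at 78.5 and 83.3 against 237 and 295 CPM (-1.72 ± 0.23). Elovl6, which elongates palmitate, stood at 85.7 and 85.9 against 193 and 247 CPM (-1.36 ± 0.28). The desaturase and elongase genes differed more than Fasn, fatty acid synthase, at 346 and 349.9 against 577 and 566 CPM (-0.72 ± 0.16), and Acss2, which makes acetyl-CoA from acetate, at 8.48 and 9.21 against 14.5 and 14.3 CPM (-0.70 ± 0.16). Removing a library left 1 or 2 genes of the list called. Lipg, the secreted endothelial lipase, had the largest fall among the named genes, at 1.03 and 0.957 against 7.90 and 11.9 CPM (-3.30 ± 0.44, adjusted p = 0.0021). Oxct1, which lets cells use ketone bodies, was lower (319 and 307 against 565 and 645 CPM, -0.95 ± 0.18). On the side of fatty acid oxidation 1 of 23 genes rose, Cpt1a, the carnitine transferase that admits fatty acids to mitochondria, at 224 and 265 against 139 and 151 CPM (0.75 ± 0.18, adjusted p = 0.0427), and 0 fell. The 1 call stands beside 1.52% of all genes that rose. Of the 23 genes 17 had a value below 0 (median -0.11, and -0.33 without DMT-Cre replicate 1). The block gave 1 higher and 4 lower, where it called 14.2% of all genes.

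Some lower genes stood in WT-Cre below their level with GFP virus, and others did not. Nsdhl stood at 119 and 138 CPM in WT-GFP and 109 and 141 CPM in DMT-GFP, Insig1 at 198 and 221.99 against 169 and 212 CPM, and Scd2 at 2994 and 3768 against 3004 and 4193 CPM. In each of these 3 genes the GFP groups overlapped, WT-Cre was lower than they were, and DMT-Cre was lower again. EV-Cre was the lowest for Nsdhl (11.8 and 11.6 CPM) and Insig1 (19.1 and 16.2 CPM). Dpp4, a lower gene outside these pathways, stood at 5.96 and 6.49 CPM in WT-Cre and at 6.52 and 5.11 CPM in WT-GFP, so those groups overlapped. RNA of a whole culture was measured, so a smaller number of cells using a gene and less RNA in each cell cannot be told apart.

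**Figure D3:**
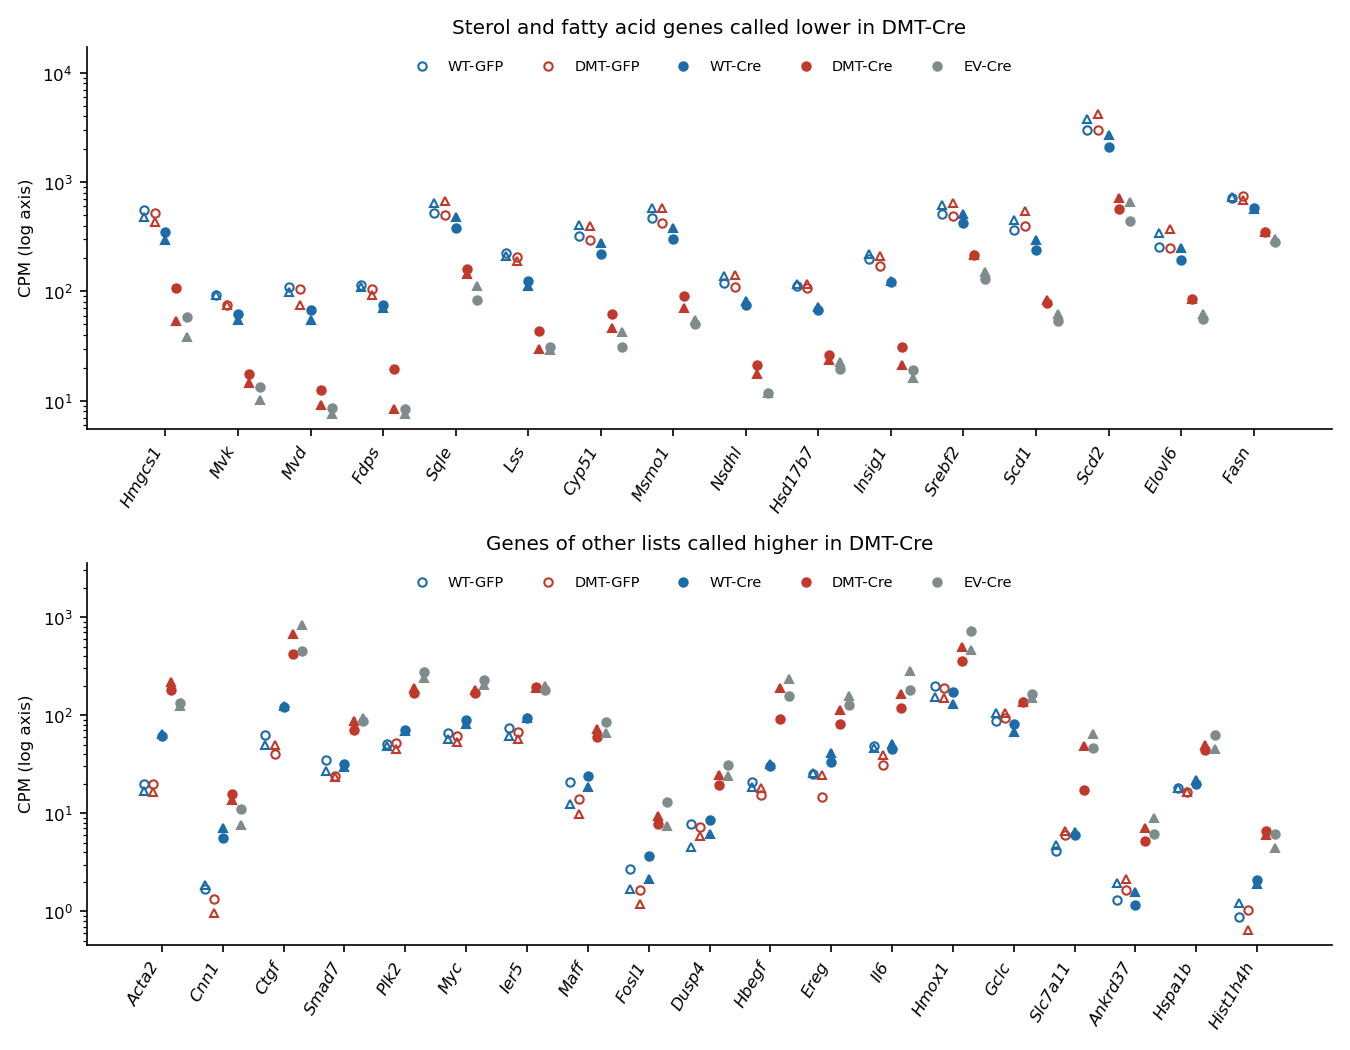
Level in CPM (log axis) of 16 lower genes of sterol and fatty acid metabolism and 19 higher genes in each library of WT-GFP, DMT-GFP, WT-Cre, DMT-Cre and EV-Cre; circles are replicate 1 and triangles replicate 2. For Nsdhl the GFP libraries lie at 109 to 141 CPM, WT-Cre at 75.4 and 81.7 CPM, and DMT-Cre at 21.1 and 17.5 CPM.

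Other lower genes included several enzymes and membrane proteins of fibroblasts. Fmo1 (chr1:162829561-162866610), a flavin monooxygenase, stood at 2.18 and 2.03 CPM in DMT-Cre and 14.2 and 14.2 CPM in WT-Cre (-2.75 ± 0.22, adjusted p = 0.000125). Kank4 (chr4:98754898-98817537), a protein of the actin cortex, stood at 9.25 and 11.96 against 49.0 and 45.8 CPM (-2.16 ± 0.18, adjusted p = 0.000125). These 2 genes had the smallest p-values of the comparison. Stk32b, a serine/threonine kinase, stood at 0.803 and 0.558 against 7.86 and 4.63 CPM (-3.19 ± 0.42), and Sult1c2, a sulfotransferase, at 2.98 and 1.91 against 21.8 and 17.1 CPM (-2.99 ± 0.48). The peptidase genes Anpep (1.83 and 2.87 against 16.3 and 20.3 CPM, -2.96 ± 0.44) and Dpp4 (1.11 and 1.36 against 5.96 and 6.49 CPM, -2.33 ± 0.27) were both lower. The methyltransferase gene Inmt (-2.33 ± 0.48) and Batf, of the AP-1 family (-2.41 ± 0.49), were lower as well. For Stk32b and Sult1c2 part of the difference was present without Cre, with log2 differences of -1.12 and -0.99 between DMT-GFP and WT-GFP. These did not pass the test without the replicate block and passed with it (edgeR adjusted p = 0.00845 and 0.034). Batf and Dpp4 also had negative differences without Cre (-0.89 and -0.59), which did not pass with or without the block.

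Genes of the cytoskeleton and of TGF-beta and YAP signaling were among those higher in DMT-Cre. TGF-beta acts through SMAD factors and YAP through TEAD factors, and both raise contractile and matrix genes in fibroblasts. Of 16 smooth-muscle contractile genes tested 3 rose and 0 fell, with a median of 0.60 (0.38 without DMT-Cre replicate 2), and under the block 7 rose and 1 fell. Acta2 (chr19:34241090-34255590), smooth-muscle actin, stood at 179.6 and 215 CPM in DMT-Cre and 62.0 and 64.2 CPM in WT-Cre (1.65 ± 0.22, adjusted p = 0.0021). Cnn1, calponin, stood at 15.8 and 13.8 against 5.63 and 7.16 CPM (1.21 ± 0.23), and Synpo2, an actin-binding protein, at 3.59 and 3.71 against 1.95 and 1.72 CPM (0.99 ± 0.21). Acta2 was the only contractile gene called without each of the 4 libraries in turn. Tagln (134 and 137 against 78.5 and 74.1 CPM) and Myl9 (79.8 and 85.4 against 48.4 and 43.5 CPM) had groups that did not overlap but did not pass (adjusted p = 0.1198 and 0.129). Among the most abundant genes that rose were Actn1, alpha-actinin (523 and 565 against 289.7 and 308 CPM, 0.87 ± 0.19), and Palld, palladin (367 and 411 against 218 and 196 CPM, 0.91 ± 0.18), which crosslink or anchor actin filaments.

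Of 20 YAP and TEAD targets tested 3 rose and 0 fell (median 0.40, 9 under the block). Over all genes 1.52% rose, and the block called 14.2%. Ctgf, a secreted matricellular protein, stood at 424 and 672 CPM in DMT-Cre and 121 and 125 CPM in WT-Cre (2.16 ± 0.44, adjusted p = 0.0201). The DMT-Cre libraries were far apart but both above WT-Cre, and its relative Cyr61, at 609 and 1349 against 204 and 298 CPM, did not pass (1.96, adjusted p = 0.101). The other members that rose were Ajuba, a LIM protein (0.75 ± 0.15), and Gadd45b (0.59 ± 0.12). Of 20 TGF-beta ligands, receptors and response genes 4 rose and 0 fell (median 0.18, with 6 higher and 1 lower under the block). That median became 0.38 or 0.06 when DMT-Cre replicate 1 or 2 was left out, and 0.07 or 0.31 when WT-Cre replicate 1 or 2 was. Those named here encode proteins that limit the pathway. Smad7, an inhibitory SMAD, stood at 70.7 and 88.0 against 32.1 and 29.8 CPM (1.36 ± 0.18, adjusted p = 0.00226), while Skil (0.69 ± 0.17) and Pmepa1 (0.50 ± 0.11) were closer to the threshold. Removing a library left 1 or 2 genes of the TGF-beta list and 0 or 1 of the YAP list called. Thbs1, thrombospondin, stood at 1131 and 2041 against 358 and 401 CPM (2.06 ± 0.46). It was the only one of 24 other matrix genes that rose, against 1.52% of all genes. Under the block 7 rose and 2 fell, where 14.2% of all genes were called. Smoc1, a secreted calcium-binding protein (2.16 ± 0.51), and Thbd, thrombomodulin (1.70 ± 0.39), also rose, but the removal of a library left Smoc1 called in 0 of the 4 fits and Thbd in 1.

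Immediate early genes and growth factor genes were higher in part. These genes answer growth factors and stress within minutes, through ERK and related kinases. Of 26 tested 5 rose and 0 fell, with a median of 0.48 (10 under the block). Ier5 (chr1:155096361-155099636), a regulator of HSF1, stood at 195 and 190.0 CPM in DMT-Cre and 92.6 and 92.5 CPM in WT-Cre (1.06 ± 0.13, adjusted p = 0.00183). Maff, a small MAF factor, stood at 59.5 and 72.2 against 24.1 and 18.6 CPM (1.63 ± 0.27). Dusp1, a phosphatase of MAP kinases, stood at 86.9 and 105 against 46.3 and 51.5 CPM (0.97 ± 0.20). Replicates of a group were close in these genes, and Fosl1, an AP-1 subunit (1.54 ± 0.34), and Ier3 (0.87 ± 0.21) completed the 5. Of 16 ERK feedback genes 2 rose and 0 fell (median 0.77, 9 under the block). These were Dusp4, a nuclear ERK phosphatase, at 19.3 and 24.7 against 8.57 and 6.20 CPM (1.57 ± 0.26), and Spry4, an inhibitor of receptor signaling, at 4.66 and 6.58 against 2.40 and 2.58 CPM (1.17 ± 0.26). Of 9 EGF-family ligands and receptors 2 ligands rose. Hbegf stood at 90.7 and 189.6 against 30.4 and 31.4 CPM (2.18 ± 0.39), and Ereg at 80.9 and 114 against 33.4 and 41.6 CPM (1.38 ± 0.33). Il6, the cytokine, stood at 118 and 163 against 45.7 and 51.1 CPM (1.54 ± 0.30). It was the only one of 18 IL-6 family and acute-phase genes that rose, against 1.52% of all genes. The block called 4 of the list, where it called 14.2% of all genes, and DESeq2 called 3. The EGF-receptor ligands and Il6 varied more between the DMT-Cre libraries than between the WT-Cre libraries. Removing a library left 1 to 3 genes of the immediate early list, 0 to 2 of the ERK feedback list and 0 or 1 of the EGF-family list called. Calls were not made among the kinases themselves. Of 26 genes of PI3K-AKT and RAF-MEK-ERK kinases edgeR's quasi-likelihood test called 0, with 1 at an unadjusted p under 0.05, 0 by DESeq2 and a median of 0.0061.

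Among growth control genes Myc was higher and a pair of inhibitor genes lower. Myc stood at 167 and 179.6 CPM in DMT-Cre and 88.4 and 81.0 CPM in WT-Cre (1.03 ± 0.15, adjusted p = 0.00325). Cdkn2a, which encodes the inhibitors p16 and p19 of the CDK4 and MDM2 pathways, stood at 24.5 and 19.97 against 60.7 and 54.3 CPM (-1.37 ± 0.26), and its neighbor Cdkn2b at 10.2 and 8.01 against 29.9 and 21.8 CPM (-1.502 ± 0.31). Thus 1 of 17 genes of G1 cyclins, kinases and inhibitors rose and 2 fell, against 1.52% and 1.42% of all genes, and the block gave 2 higher and 5 lower. The calls of Cdkn2a and Cdkn2b were lost without any 1 of the 4 libraries, and that of Myc without WT-Cre replicate 2. Cdkn1a, the p21 inhibitor, did not pass the test (38.5 and 47.9 against 24.3 and 21.7 CPM, 0.91, adjusted p = 0.134). Of 23 Trp53 targets 1 rose and 3 fell, against 1.52% and 1.42% of all genes. The block gave 4 higher and 5 lower, where it called 14.2% of all genes. Plk2 (chr13:110395046-110400844), a polo-like kinase, stood at 168 and 191 against 71.4 and 68.2 CPM (1.36 ± 0.14, adjusted p = 0.000557). Sesn1, a stress-induced inhibitor of mTORC1, fell to 27.6 and 22.1 from 61.1 and 62.3 CPM (-1.31 ± 0.20), and the cell-death genes Perp (-1.21 ± 0.27) and Bbc3 (-0.88 ± 0.22) fell as well. The removal of a library left 1 or 2 of the targets called, and Perp and Bbc3 in none of the 4 fits.

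Mitotic genes were lower in replicate 2 but much less so in replicate 1, and none passed the test. Of the 35 G2/M and spindle genes all had a log2 difference below 0, with a median of -0.53 over both pairs, -0.12 in replicate 1 and -1.07 in replicate 2. edgeR's quasi-likelihood test called 0 of them, with 4 at an unadjusted p under 0.05, 0 by DESeq2 and 0 under the block. Ccnb1, cyclin B1, stood at 23.4 and 10.6 CPM in DMT-Cre and 28.9 and 31.9 CPM in WT-Cre. DMT-Cre replicate 2 was low for this gene and for Plk1, the mitotic kinase (57.3 and 29.8 against 63.9 and 67.3 CPM), while replicate 1 lay close to WT-Cre. EV-Cre stood at 11.5 and 6.03 CPM for Ccnb1 and at 28.2 and 14.9 CPM for Plk1. Of 39 S-phase genes 0 were called (1 at an unadjusted p under 0.05, 0 by DESeq2, 2 lower under the block), with medians of 0.0023 in replicate 1 and -0.50 in replicate 2. The difference in cell cycle genes between the replicate pairs stood beside the results above, and its part in them was not tested.

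Some genes of stress programs were higher. NRF2 is the factor that raises glutathione and antioxidant enzymes under oxidative stress. Of 22 such genes 4 rose and 0 fell (median 0.21, 8 under the block). Hmox1, heme oxygenase, stood at 357 and 493 CPM in DMT-Cre and 172 and 129 CPM in WT-Cre (1.496 ± 0.30, adjusted p = 0.0178). The same gene stood at 216 and 175 CPM in MT194-Cre, 171 and 144 CPM in MT486-Cre and 718 and 458 CPM in EV-Cre. DMT-Cre lay above both single mutants and, in replicate 1, below EV-Cre. Gsta4, a glutathione transferase, stood at 24.0 and 36.9 against 7.82 and 7.54 CPM (1.99 ± 0.28, adjusted p = 0.00291). In MT194-Cre it stood at 11.8 and 8.28 CPM, in MT486-Cre at 10.97 and 9.93 CPM and in EV-Cre at 65.3 and 42.5 CPM. Slc7a11, the cystine transporter, stood at 17.4 and 47.9 against 6.001 and 6.49 CPM (2.39 ± 0.47), and Gclc, the first enzyme of glutathione synthesis, at 135 and 136 against 81.3 and 67.8 CPM (0.86 ± 0.15). Slc7a11 varied widely between the DMT-Cre libraries and was also the only one of 23 ATF4 stress and serine synthesis genes that rose, against 1.52% of all genes. For that list the block called 4, where it called 14.2% of all genes, DESeq2 called 2 and the removal of a library left 0 or 1. Removing a library left 0 to 4 genes of the NRF2 list called, and the difference of Hmox1 from the mean of the single mutants did not pass the test (1.28, adjusted p = 0.236).

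Among 26 genes of hypoxia and glycolysis 3 rose and 0 fell, with a median of 0.55 (13 under the block). Egln3, an oxygen sensor that marks HIF for degradation, stood at 3.52 and 4.30 CPM in DMT-Cre and 1.16 and 0.572 CPM in WT-Cre (2.15 ± 0.46). Ankrd37, a HIF target, stood at 5.198 and 7.05 against 1.16 and 1.57 CPM (2.17 ± 0.31). Hk2, hexokinase, stood at 112 and 129.6 against 86.0 and 80.8 CPM (0.53 ± 0.11). For Egln3 MT194-Cre (1.29 and 0.433 CPM) and MT486-Cre (0.448 and 0.621 CPM) stood near WT-Cre while EV-Cre stood at 5.32 and 4.05 CPM, but the difference of DMT-Cre from the mean of the single mutants was not called (2.50, adjusted p = 0.0823). Ankrd37 differed from this pattern, at 4.09 and 3.42 CPM in MT194-Cre, which was called against WT-Cre (1.46, adjusted p = 0.0426). Slc2a1, the glucose transporter, did not pass (190.3 and 439.7 against 90.3 and 113 CPM, 1.63, adjusted p = 0.0772). Between 0 and 2 genes of the list were called when a library was removed. Of 15 heat shock genes 2 rose and 0 fell (median 0.38, 3 under the block). Without a library 1 or 2 were called and the median was lower, between 0.17 without DMT-Cre replicate 2 and 0.29 without WT-Cre replicate 2. Hspa1b (chr17:34956436-34959238), an inducible HSP70, stood at 44.3 and 49.9 against 19.99 and 21.9 CPM (1.17 ± 0.15, adjusted p = 0.0021), and Hsph1, its exchange factor, at 175 and 158 against 91.0 and 98.1 CPM (0.81 ± 0.14). Hspa1b has a nearly identical neighbor, Hspa1a, and the removal of reads with several matches leaves its level uncertain.

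Clustered histone genes had a high median over both pairs, but less so in replicate 2. Their messages normally end in a stem-loop without a poly(A) tail, and the libraries were made from poly(A) RNA. Of 22 tested 5 rose and 0 fell, with a median of 1.22 (1.25 in replicate 1 and 0.59 in replicate 2) and 11 under the block. Hist1h4h stood at 6.57 and 5.94 CPM in DMT-Cre and 2.07 and 1.91 CPM in WT-Cre (1.65 ± 0.24, adjusted p = 0.00325). Hist1h1e, a linker histone, stood at 3.36 and 2.67 against 0.786 and 0.382 CPM (2.34 ± 0.41). Hist1h3b rested on 46 reads in DMT-Cre and 5 in WT-Cre, a ratio of 8.10 (95% exact interval 3.23 to 26.1, counting error only). Hist1h2be (1.41 ± 0.34) and Hist2h2be (0.61 ± 0.15) also rose. The called histone genes were at low levels, and copies of a histone type are so alike that the assignment of reads between them is uncertain. Removing a library left 0 to 3 genes of the list called and moved its median between 0.62 and 1.55, the lowest without DMT-Cre replicate 1. Gpr35, a G protein-coupled receptor, rested on 250 reads in DMT-Cre and 7 in WT-Cre (ratio 31.4, 95% exact interval 15.04 to 79.0, counting error only), the largest increase among the named genes.

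Few or no genes of mitochondria and ribosomes were called without the replicate block. Of 75 nuclear genes of oxidative phosphorylation 2 fell and 0 rose, with a median of -0.28 and 69 values below 0. Ndufb11, a subunit of complex I, stood at 44.6 and 41.9 CPM in DMT-Cre and 70.4 and 71.6 CPM in WT-Cre (-0.72 ± 0.13, adjusted p = 0.0111), and Uqcrc1, of complex III, at 97.9 and 99.3 against 141 and 142 CPM (-0.52 ± 0.12). Of 25 citrate cycle genes 1 fell, Idh3g (37.3 and 36.9 against 54.5 and 52.1 CPM, -0.52 ± 0.12), and 0 rose. Over all 13805 genes tested 196 (1.42%) fell without the replicate block and 920 fell with it. Removing any library of the comparison left 0 called in both lists, and under the block 8 and 6 fell. Of 73 cytosolic ribosomal protein genes 0 were called, with a median of -0.39, 8 at an unadjusted p under 0.05 and 0 by DESeq2, where the block gave 2 higher and 20 lower. None of the 13 mitochondrially encoded genes was listed.

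**Figure D4:**
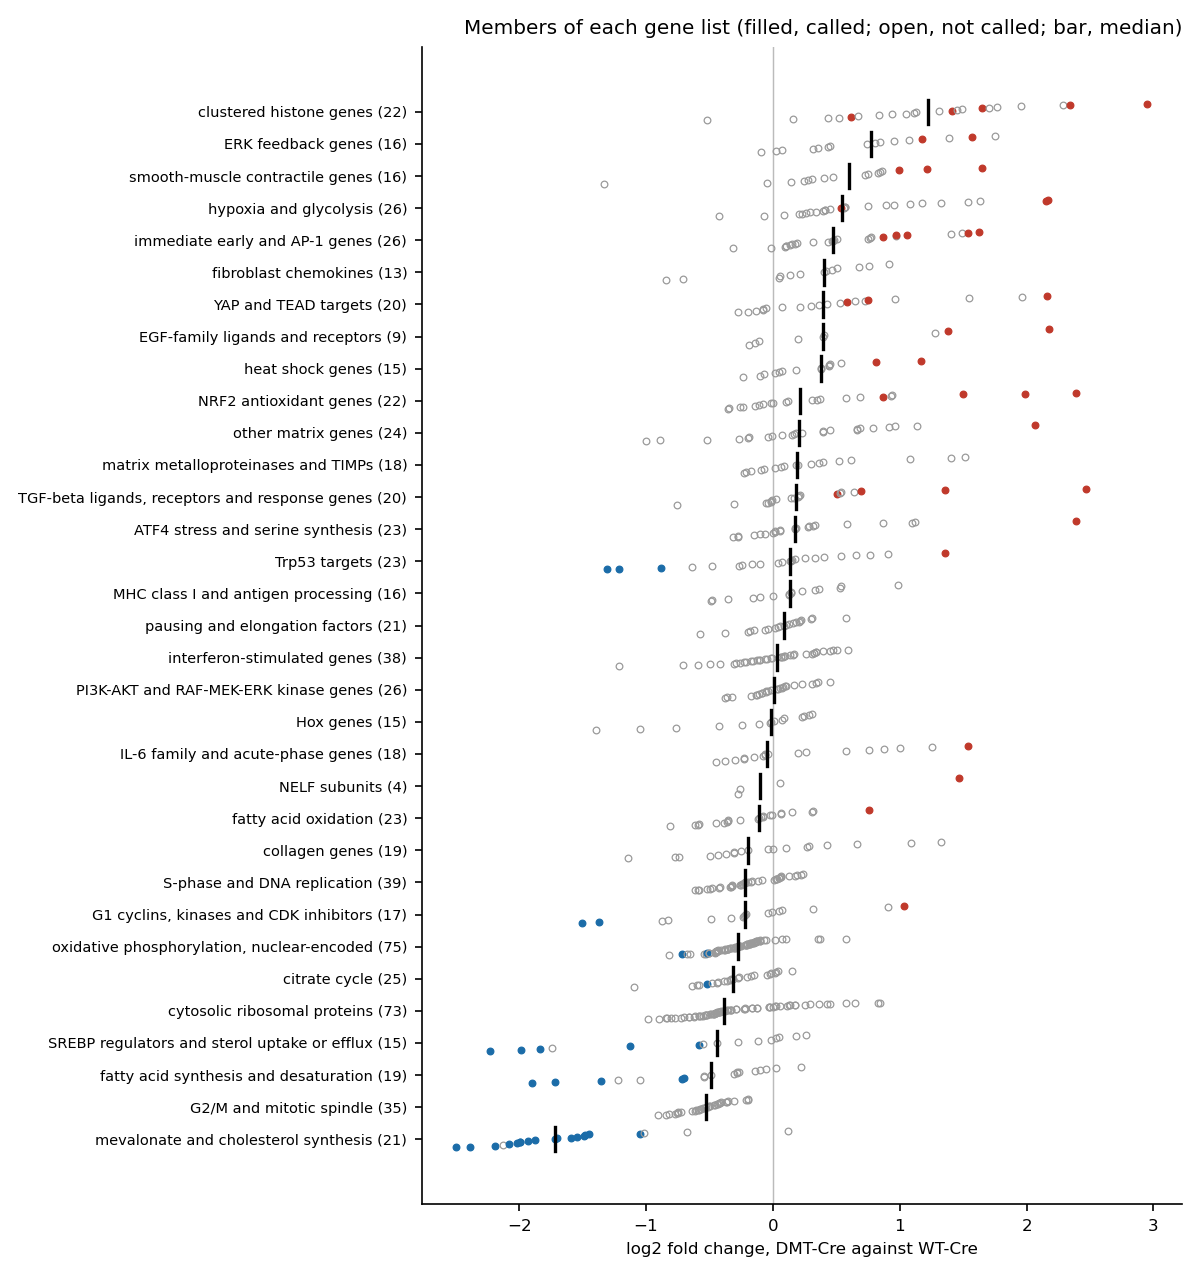
Log2 fold change of DMT-Cre against WT-Cre (horizontal axis) for the members of the gene lists; filled points are called, open points are not, and the vertical bar is the list median. The cholesterol synthesis list lies furthest to the left, with 17 of 21 members called and a median of -1.72, and the clustered histone list furthest to the right, with a median of 1.22.

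In the remaining lists edgeR's quasi-likelihood test called 0 genes. Over all genes 2216 (16.1%) had an unadjusted p under 0.05 and the block called 14.2%, the shares beside which these counts stand. Of 21 pausing and elongation factors, the partners of NELF at the polymerase, 3 had an unadjusted p under 0.05, DESeq2 called 0 and the median was 0.09. That median became -0.01 without DMT-Cre replicate 1 and 0.18 without DMT-Cre replicate 2. Of 19 collagen genes 3 had an unadjusted p under 0.05 and DESeq2 called 1. For 18 matrix metalloproteinases and TIMPs these counts were 3 and 1, and for 38 interferon-stimulated genes also 3 and 1. For 16 genes of MHC class I and antigen processing they were 2 and 0, for 13 fibroblast chemokines 3 and 1, and for 15 Hox genes 2 and 0. Under the block the calls among these lists were 1 higher and 1 lower for the pausing factors, 2 and 3 for collagens, 2 and 0 for metalloproteinases, 1 and 3 for interferon genes, 4 and 1 for chemokines, 0 and 2 for Hox genes and 0 for MHC genes. A list without calls is not shown to be unaffected at 2 libraries a group.

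DMT-Cre was set beside the single mutants and the empty vector. The comparisons of MT194-Cre, MT486-Cre and EV-Cre with WT-Cre share the WT-Cre libraries with the one described here, so their values are only placed side by side. They called 191 genes (1.38%), 15 genes (0.109%) and 1018 genes (7.37%). The 210 and 196 genes below were chosen on their DMT-Cre values, which can raise the size of their DMT-Cre medians relative to the other groups, so no order is read from them. The 210 genes higher in DMT-Cre had medians of 1.21 in DMT-Cre, 0.81 in MT194-Cre, 0.64 in MT486-Cre and 1.19 in EV-Cre. For the 196 lower genes the medians were -1.05, -0.83, -0.60 and -1.09. Cholesterol synthesis had list medians of -1.72 in DMT-Cre, -1.37 in MT194-Cre, -1.31 in MT486-Cre and -2.21 in EV-Cre. For hypoxia and glycolysis they were 0.55, 0.12, 0.05 and 0.68, and for NRF2 genes 0.21, -0.03, -0.10 and 0.40. They were 0.60, 0.49, 0.67 and 0.51 for contractile genes and 1.22, 1.13, 0.95 and 1.01 for clustered histones. For other matrix genes the medians were 0.21, 0.58, 0.14 and 0.13, and for metalloproteinases and TIMPs 0.19, 0.46, 0.09 and 0.38. Differences between list medians of the groups were not tested, and no order is read from them. Leaving out 1 library put the DMT-Cre median between 0.38 and 0.74 for contractile genes and between 0.62 and 1.55 for histones. For other matrix genes it lay between -0.19 and 0.61, and for metalloproteinases and TIMPs between -0.18 and 0.58.

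Direct tests between DMT-Cre and these groups called few genes. Against the mean of MT194-Cre and MT486-Cre edgeR's quasi-likelihood test called 1 gene (0.00724%), with 577 at an unadjusted p under 0.05 and 31 by DESeq2. The gene was Ndn (chr7:62346569-62350262), the imprinted gene of necdin, at 42.7 and 49.3 CPM in DMT-Cre (log2 difference 0.80 ± 0.10, adjusted p = 0.0446). It stood at 41.3 and 48.9 CPM in MT194-Cre but at 16.2 and 14.8 CPM in MT486-Cre, so the difference from the mean came from MT486-Cre. Without Cre Ndn stood at 34.6 and 37.9 CPM in DMT-GFP against 23.5 and 25.04 CPM in WT-GFP, a difference that did not pass the test without the replicate block and passed with it (edgeR adjusted p = 0.034). The call against the single mutants was lost without any 1 of the 6 libraries, where 0 genes were called except 2 others without MT194-Cre replicate 1. With the block 153 genes were called, 102 of them higher in DMT-Cre. Against EV-Cre, in a contrast added after the data were seen, 1 gene was called (0.00724%), with 447 at an unadjusted p under 0.05 and 7 by DESeq2. That gene was Nelfb (log2 difference 4.81, adjusted p = 4.02e-07), which EV-Cre has no construct to supply. Under the block 48 genes were called, 31 of them higher in DMT-Cre. Few differences between DMT-Cre and EV-Cre were called, which does not show that the populations were alike at 2 libraries a group. The same fit called 1018 genes in EV-Cre against WT-Cre, and the cause of the low count here was not tested. For Plk1 the log2 difference was 1.01 (95% interval 0.18 to 1.84) and was not called.

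**Figure D5:**
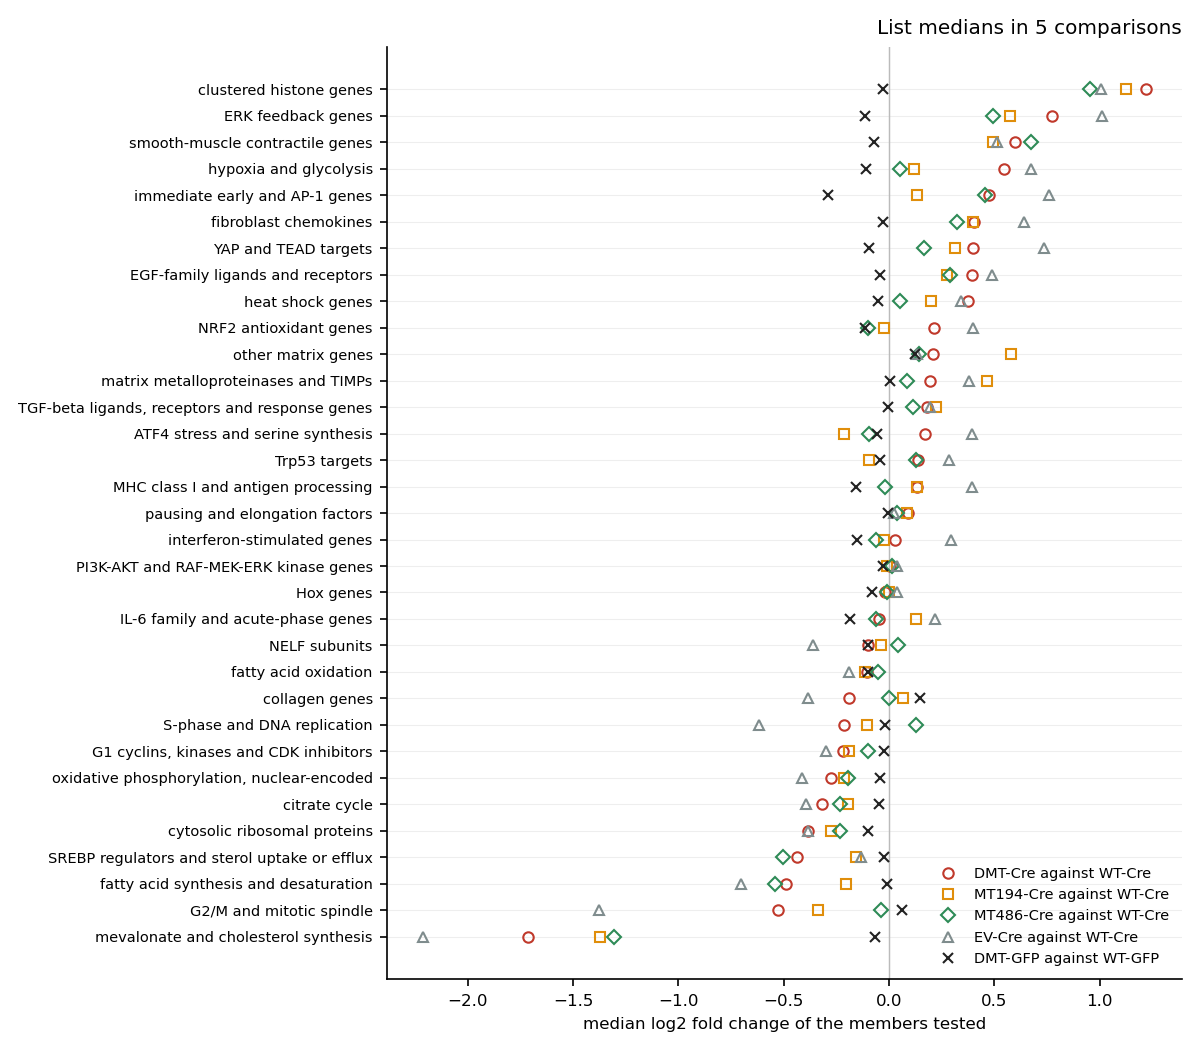
Median log2 fold change of each gene list (horizontal axis) in DMT-Cre, MT194-Cre, MT486-Cre and EV-Cre against WT-Cre and in DMT-GFP against WT-GFP. The Cre comparisons share the WT-Cre libraries; for cholesterol synthesis the DMT-GFP median is -0.07 and the DMT-Cre median -1.72.

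The libraries carried RNA of fibroblasts with little of other cell types. Fibroblast markers summed to 24771 and 46576 CPM in DMT-Cre and 24278 and 33464 CPM in WT-Cre, with Fn1, fibronectin, the most abundant, and 1 of 11 tested markers was called, S100a4, which stood at 28.2 and 17.9 CPM in DMT-Cre and 54.9 and 58.5 CPM in WT-Cre (-1.30 ± 0.24, adjusted p = 0.012) and is named only for this call. Thy1, a surface marker of many fibroblasts, was nearly absent from all 4 libraries, at 0 in both DMT-Cre libraries and at 0.0828 and 0.0477 CPM in WT-Cre. Lum was near the floor, at 0.573 and 1.16 CPM in DMT-Cre and 1.86 and 1.34 CPM in WT-Cre. Fap was low, at 3.82 and 8.25 against 11.5 and 11.4 CPM. Of the 12 listed markers 10 exceeded 1 CPM in DMT-Cre replicate 1 and 11 in each other library. Of the macrophage markers only Cd14 was abundant, at 184 and 318 CPM in DMT-Cre and 348 and 402 CPM in WT-Cre, whereas Adgre1 and Tyrobp were at 0 in all 4 libraries. The summed markers of endothelial, epithelial and muscle cells stood at no more than 1.57 CPM in any of the 4 libraries. Neural markers summed to between 82.6 and 109 CPM, nearly all from Nes, nestin, with Sox10 at 0, and 0 of the 3 tested were called.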

How the data were processed

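RNA of each population was sequenced as stranded poly(A) libraries. The authors aligned reads to mm10 with Bowtie2, kept a mapping quality of at least 30, counted them per gene with HTSeq and deposited the whole-number counts of 24421 genes, each library in a table of its own. Rows that name no gene were left out of library sizes. The 20 population libraries were fitted together in edgeR 4.0.16 (R 4.3.3) with TMM scaling, a filter on low counts that kept 13805 genes and 1 mean per group, with no replicate block; p-values came from the quasi-likelihood test with Benjamini-Hochberg adjustment, the SE is the log2 fold change divided by the square root of F, and spread is that between 2 experiments. CPM are scaled by TMM. DESeq2 1.42.0 and other settings were tried as alternatives. The scripts were tested on simulated data. Deviations of same-numbered replicates from their group means correlated at over 0.1 in 45 of 45 pairs of groups (0.420 to 0.730), so the numbers pair the samples. The reported fit leaves this pairing out, so a gene said not to pass there may pass with the block. The comparison, the 34 gene lists and their members were chosen with earlier results of these data known. Named genes were the NELF subunits, in each direction the 12 called genes with the largest fold change (mean of at least 50 counts, groups not overlapping) and the 6 most abundant, up to 6 called members per list by p, the 3 smallest interaction p-values in each direction and every gene called in comparisons that called at most 5. Values of list members outside this rule illustrate the lists and were picked after they were seen. Some genes that the rule names are not reported here. The 15 libraries of cell clones were not used here. Positions are GRCm38. Residual degrees of freedom were 10, and 0 pairs of libraries were identical.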

Additional observations from a re-analysis of the deposited data

Results flagged for a closer look

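A set of genes stood out because the difference between DMT and WT with Ad-Cre differed, by the interaction test of edgeR over all 13805 genes, from the difference between the same constructs with Ad-GFP. The values below are the log2 difference with Cre minus that without Cre. The most negative was Lipg, endothelial lipase, at -3.30 (adjusted p = 0.0436). The sterol and fatty acid genes were Nsdhl at -1.99 (adjusted p = 0.00975), Hsd17b7 at -1.46 (0.0259), Insig1 at -2.09 (0.0351) and Scd1 at -1.94 (0.0351). Fmo1 stood at -2.52 and Kank4 at -1.95 (both adjusted p = 0.00975). On the positive side were Plk2 at 1.40 (0.0179), Smad7 at 1.76 (0.0259), Ier5 at 1.18 (0.0297) and Hspa1b at 1.31 (0.0351). Nelfb itself was among them at 1.88 (0.0259), since its level was higher in DMT-Cre than in WT-Cre and lower in DMT-GFP than in WT-GFP, though the difference without Cre did not pass the test.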

How the results depend on the processing

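None of the 87 called named genes changed sign under any alternative. Of the 33 list medians, 13 changed sign in at least 1 fit without a library. Each had an absolute median of at most 0.40 in the reported fit. Collagens, for example, went from -0.19 to 0.20 without DMT-Cre replicate 1. Without DMT-Cre replicate 2 other matrix genes went from 0.21 to -0.19 and chemokines from 0.40 to -0.05. Those fits set unequal sets of experiments against each other. Within replicate pairs 1 and 2 the collagen medians were -0.21 and 0.03. They were 0.0028 and 0.36 for other matrix genes and 0.16 and 0.37 for chemokines. The 406 genes called in DMT-Cre against WT-Cre became 717 with DESeq2 on all 20 libraries (401 of the 406 among them), 1965 with the replicate block (all 406), 268 without the filter on low counts, 102 with edgeR on these 4 libraries alone, 226 at an absolute log2 fold change over 1, and 62 to 137 when a library was left out, where the direction balance turned from 210 higher and 196 lower to 20 and 42 without WT-Cre replicate 2. DESeq2 on the 4 DMT-Cre and WT-Cre libraries alone called 508 genes (293 higher, 215 lower), with 247 of the 406 among them. The count for DMT-GFP against WT-GFP was 0, and became 2 with DESeq2 and 19 with the replicate block. The difference of differences gave 19, against 200 with DESeq2 on all libraries, 154 with DESeq2 and 0 with edgeR on its 8 libraries alone, 30 with a mean of at least 10 CPM, 992 with the block and 0 to 11 without a library. Against the mean of the single mutants the count was 1, and became 31 with DESeq2 on all libraries, 7 with DESeq2 and 0 with edgeR on the groups alone, 0 with DESeq2 size factors or a log2 fold change over 1, 2 without the filter or with a mean of 10 CPM, 153 with the block and 0 to 2 without a library. Against EV-Cre the count was 1, and became 7 with DESeq2, 48 with the block, 0 with edgeR on the 4 libraries alone and 1 to 1 without a library. The low counts of edgeR on few libraries come with fewer residual degrees of freedom; the causes of the other changes were not tested. The block changed no call of the 87 called named genes. Of these, 17 were called without each of the 4 libraries in turn and 33 in none of those fits, with 0 changes of sign; 86 were called with DESeq2 size factors, 69 without the filter and 43 with edgeR on 4 libraries. With 2 libraries a group, a gene that was not called may still differ.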

Other observations

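The interaction test also called genes outside the lists, which are named here after their values were seen. Apln, the apelin peptide, stood at 110.2 and 143 CPM in DMT-Cre and 46.4 and 46.4 CPM in WT-Cre. Lrba, a protein of vesicle trafficking, stood at 34.4 and 42.3 against 103 and 110.1 CPM, and Phpt1, a histidine phosphatase, at 33.7 and 35.8 against 63.5 and 70.6 CPM. All 3 genes were also called in DMT-Cre against WT-Cre. None of the 406 genes called there had groups that overlapped, so the distance between the groups adds no support.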
